A study of Mus musculus with 8 samples.

Results

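The genes described are those whose name on the array begins with the prefix of a nuclear-encoded subunit of the mitochondrial respiratory chain or of the ATP synthase. They are Nduf for complex I, Sdha to Sdhd for complex II, Uqcr for complex III, Cox4 to Cox8 for complex IV and Atp5 for the ATP synthase (complex V). This rule found 82 of 27962 gene names, with 37 in complex I, 4 in complex II, 7 in complex III, 18 in complex IV and 16 in the ATP synthase, and it uses no measured value. Of the 82, 80 had a probe that passed the filter on dim signals, and Cox4i2 and Cox8b did not. The prefix also takes in 4 genes that are not subunits in a strict sense: Ndufaf1, a complex I assembly factor, Cox7a2l, which joins complexes III and IV, Atp5s, an ATP synthase coupling factor, and Cox4nb, which lies beside Cox4i1 and is now called Emc8. Members were placed by name alone, so Ndufa4, now assigned to complex IV, is counted with complex I.

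The tested animals were 4 adult male C57BL/6J mice given di-(2-ethylhexyl) phthalate (DEHP), a plasticiser, at 200 mg/kg/day in corn oil by daily gavage for 21 days. The other 4 mice received corn oil alone (vehicle), and all mice were 21 weeks old at sampling. RNA came from laser-captured Sertoli-cell-rich areas in the middle layer of the seminiferous epithelium of the right testis, 1 cap per mouse, and went through 2 rounds of amplification. Each DEHP mouse was compared with 1 vehicle mouse on Agilent 2-colour arrays in both dye orientations, which gave 8 arrays. Pairing 1 held DEHP mouse 1 and vehicle mouse 2, pairing 2 held DEHP mouse 2 and vehicle mouse 3, pairing 3 held DEHP mouse 3 and vehicle mouse 4, and pairing 4 held DEHP mouse 4 and vehicle mouse 1.

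Complex I (NADH dehydrogenase) and complex II (succinate dehydrogenase) pass electrons to ubiquinone, complex III passes them to cytochrome c, and complex IV (cytochrome c oxidase) passes them to oxygen. Complexes I, III and IV pump protons across the inner mitochondrial membrane, and the ATP synthase uses the gradient to make ATP. Each of these complexes except complex II also holds subunits encoded by mitochondrial DNA. Sertoli cells are known to depend largely on glycolysis and to supply lactate to germ cells, while spermatocytes and spermatids use it in their mitochondria. Germ cells of the testis also carry their own isoforms of some members, among them Cox6b2, Cox8c, Cox7b2 and the testis cytochrome c, Cyct.

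The extraction software marked 48.8% to 58.3% of the spots of a channel as above background, and no spot was saturated. The number of mice and arrays limits the precision. Of the marker lists, 14 of 15 Sertoli markers were above background (Gata4 was not), and so were all 9 elongating spermatid, all 9 round spermatid and all 9 spermatocyte markers on the array. Summed marker levels, as linear intensities per mouse, ran from 53746 to 70595 in DEHP mice and from 45374 to 63921 in vehicle mice for Sertoli cells, and from 762912 to 1069447 in DEHP mice and from 777662 to 1081476 in vehicle mice for elongating spermatids, so germ-cell RNA was present in the captured areas of both groups. The extraction text of the labels names Leydig cells as the captured type, against the tissue label. Of 8 Leydig markers, Star, Cyp17a1, Hsd3b1 and Insl3 were above background, while Cyp11a1, Hsd3b6, Hsd17b3 and Lhcgr were not. The log2 ratio of Insl3, the Leydig insulin-like hormone, was -0.98, 2.23, -1.49 and -0.25 in pairings 1 to 4. In tissue samples such as these, fewer cells of a type and less RNA per cell cannot be told apart.

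No member passed the test between DEHP and vehicle mice. In limma, with Benjamini-Hochberg adjustment at 0.05 over all probes, 0 of 22971 probes (0%) and 0 of 80 members were called, and the smallest adjusted p was 0.9016. Before adjustment, p was under 0.05 for 1054 probes and for 4 of 80 members, against 4.79% of all 17061 genes tested. These 4 were Atp5o, Uqcrfs1, Ndufb3 and Atp5h, and all had a higher mean in DEHP mice, as had 422 of the 818 genes with such a p among all genes. The share of members, 4 of 80, was near that of all genes. The 95% intervals of the mean log2 ratios, from the same fit, reached from -0.44 to 0.59 at their widest and lay within 1.5-fold either way in 79 of 80 members.

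The members nevertheless had small positive ratios more often than genes in general. All ratios below are log2 values of DEHP over vehicle, and the mean over the 4 pairings was above 0 in 57 of 80 members, against 49.9% of all genes tested. The median over members was 0.071, a shift of a few percent, against -0.0002 for all genes. In all 4 pairings, 10 of 80 members were above 0, against 6.71% of all genes, and 0 of 80 were below 0, against 6.93%. The 4 DEHP mice did not overlap with the 4 vehicle mice in 2 of 80 members on the higher side (Uqcrh and Atp5h), against 0.727% of all genes, and in 0 of 80 on the lower side, against 1.05%. With arrays centred on their median in place of loess, 72 of 80 members were above 0, and so were 56.8% of all genes. That setting raised bright genes as a group. The median of the 4265 brightest genes, which include 58 of the 80 members, was 0.14, against -0.0016 with loess.

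The shift was not shared evenly by the pairings. The median over members was 0.15 in pairing 1, 0.0008 in pairing 2, 0.11 in pairing 3 and -0.0019 in pairing 4. Above 0 were 57, 40, 53 and 39 of 80 members in the same order. Pairings 1 and 3 therefore carried the shift, and in pairings 2 and 4 the members lay evenly about 0. Without pairing 1 the median over members was 0.029, and without pairing 3 it was 0.048. Both arrays of a pairing gave like medians, 0.14 and 0.14 in pairing 1 and 0.12 and 0.095 in pairing 3 (DEHP in Cy5, then in Cy3).

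The markers of other cells also differed by pairing. The median log2 ratio of the 9 elongating spermatid markers was -0.46, 0.064, 0.15 and 0.28 in pairings 1 to 4. That of the 14 Sertoli markers was 0.14, 0.16, -0.073 and 0.028. For the 9 round spermatid markers it was 0.067, 0.16, -0.12 and -0.34, and for the 4 Leydig markers -0.20, 0.40, -0.85 and -0.23. The 9 spermatocyte markers had -0.0093, 0.091, -0.012 and -0.11, and the 4 spermatogonia markers -0.049, 0.15, -0.019 and -0.058. The 5 peritubular myoid markers had 0.32, 0.035, -0.12 and 0.20. The 6 macrophage markers had -0.069, 0.0011, -0.14 and 0.023, and the 6 endothelial and blood markers -0.0585, 0.030, -0.033 and 0.15. Summed levels per mouse ran from 127207 to 146342 in DEHP mice and from 129010 to 184574 in vehicle mice for round spermatids, and from 3067 to 11420 in DEHP mice and from 3240 to 11300 in vehicle mice for Leydig cells. The part of cell makeup in the members' ratios was not tested.

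**Figure D1:**
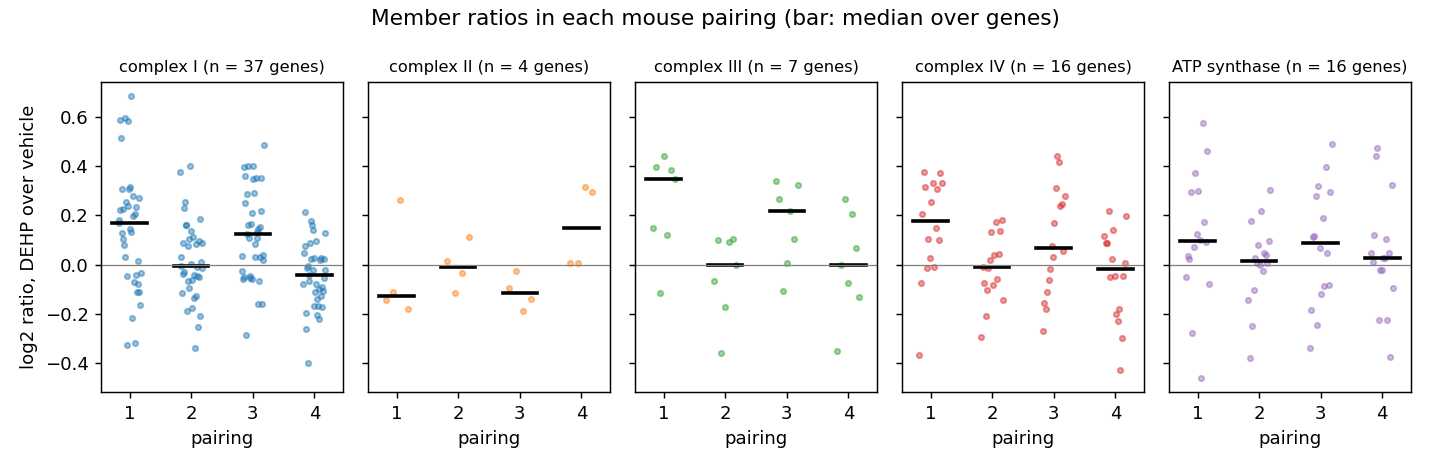
Log2 ratio of DEHP over vehicle (vertical axis) of each tested member in pairings 1 to 4 (horizontal axis), in a panel per complex, with a bar at the median over genes. The medians of complexes I, III and IV lie above 0 in pairings 1 and 3 and near 0 in pairings 2 and 4, and complex II runs the other way (its median over all pairings is above 0 with median centring and with DEHP in Cy3 alone). Complex II also has the lowest median level of the complexes.

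By complex, the median over genes was 0.080 in complex I, -0.016 in complex II (0.035 with median centring and 0.072 with DEHP in Cy3 alone), 0.13 in complex III, 0.052 in complex IV and 0.085 in the ATP synthase. Above 0 were 25 of 37, 2 of 4, 6 of 7, 13 of 16 and 11 of 16 members. The SD of the 4 pairing medians was 0.10 in complex I, 0.13 in complex II, 0.17 in complex III, 0.091 in complex IV and 0.041 in the ATP synthase. Only in the ATP synthase was the median larger than this spread, with pairing medians of 0.095, 0.015, 0.089 and 0.027. Without pairing 1, the median of complex IV was -0.0036, that of complex I was 0.026 and that of complex III was 0.063. Without pairing 3, it was 0.027 in complex I and 0.071 in complex III, and without pairing 4 it was 0.090 in complex IV. In complex III it was 0.079 with DEHP in Cy5 alone and 0.058 with DEHP in Cy3 alone, where complex I had 0.048 and the ATP synthase 0.034. The spread within a gene was wider still: the median SD over the 4 pairings was 0.20, and in 68 of 80 members the SD was larger than the size of the mean.

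**Figure D2:**
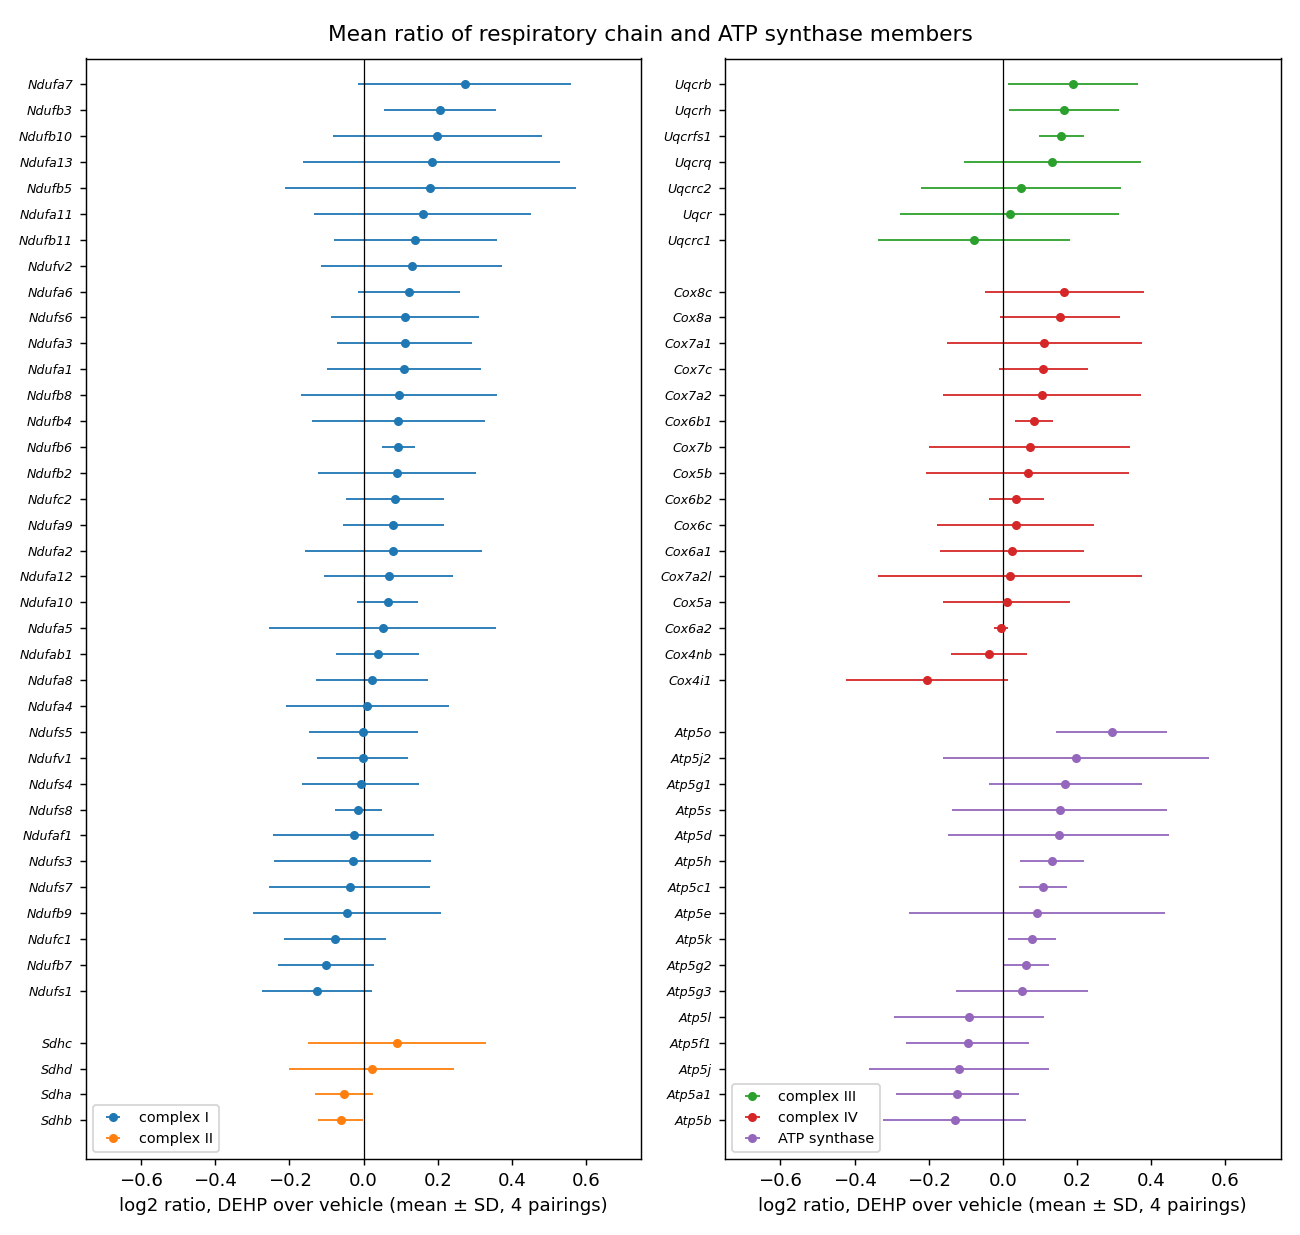
Mean log2 ratio of DEHP over vehicle (horizontal axis) with its SD over 4 pairings, for 79 of the 80 tested members, sorted within each complex. Means run from -0.20 (Cox4i1) to 0.29 (Atp5o), and most SD bars cross 0.

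Complex I is described here by kind of subunit, a split drawn after the values were seen and not tested, whose medians changed with the pairings and the scaling. The core subunits, which hold the flavin and the iron-sulphur clusters and are conserved from bacteria, had a mean above 0 in 1 of 7 genes and a median of -0.023, though with median centring it was 5 of 7 and 0.11. The accessory subunits, which surround the core in mammals, were above 0 in 24 of 29 genes with a median of 0.089, and with median centring in 29 of 29 with a median of 0.23. Ndufa4, counted among them by its name, had a mean of 0.010. With median centring the median of the 4265 brightest genes was 0.14. In pairing 1 the medians were -0.043 in core and 0.20 in accessory subunits, and in pairing 3 they were 0.017 and 0.15. In pairing 4 the order was the opposite, with 0.019 in core and -0.080 in accessory subunits. Without pairing 2 the core subunits were above 0 in 4 of 7 with a median of 0.0018, while the median of the accessory subunits was 0.026 without pairing 1 and 0.16 without pairing 4.

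**Figure D3:**
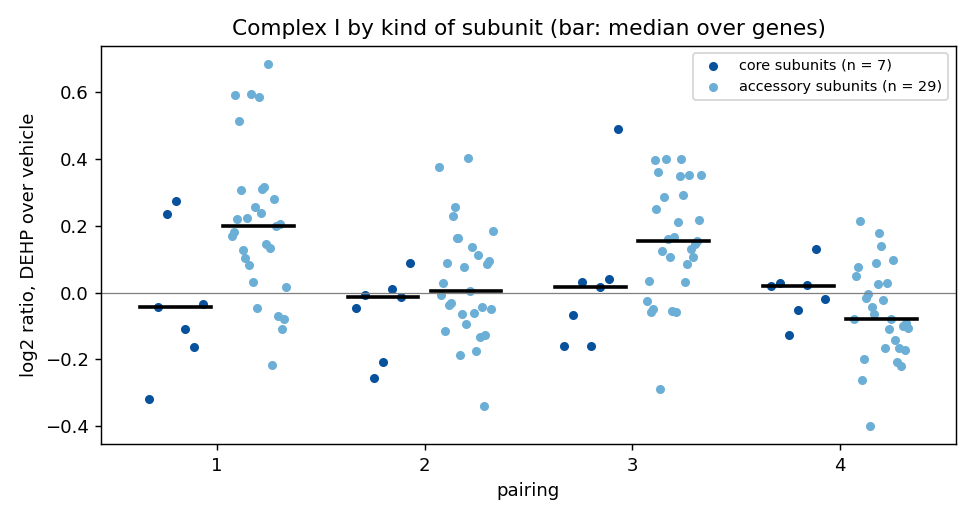
Log2 ratio of DEHP over vehicle (vertical axis) of the 7 core and 29 accessory subunits of complex I (Ndufa4 counted by name) in pairings 1 to 4 (horizontal axis), with bars at the medians. Core medians stay between -0.043 and 0.019, and accessory medians run from -0.080 to 0.20. With median centring of the arrays the core median over all pairings is above 0, as is that of the 4265 brightest genes (0.14).

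Ratios of single core subunits were as follows. Ndufs1, the largest iron-sulphur subunit, had -0.32, -0.045, -0.16 and 0.019 in pairings 1 to 4, a mean of -0.13 ± 0.15 (SD, n = 4), and 0.013 with median centring. Ndufv1, which binds NADH and flavin, had -0.0019 ± 0.12, and Ndufv2, its iron-sulphur partner, had 0.13 ± 0.24. Of the subunits that lead electrons on to ubiquinone, Ndufs3 had -0.029 ± 0.21, Ndufs7 -0.038 ± 0.22 and Ndufs8 -0.014 ± 0.064. None of these means stood out from the spread between pairings, and their unadjusted p in limma, from the fit over all probes, was 0.1284 or more.

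Ndufb3, an accessory subunit of the membrane arm, had the smallest p of complex I. Its log2 level was 13.61, 13.43, 13.46 and 13.28 in DEHP mice 1 to 4, against 13.25, 13.29, 13.29 and 13.11 in vehicle mice 1 to 4. The groups overlapped only through DEHP mouse 4. The ratio was 0.32, 0.14, 0.35 and 0.027 in pairings 1 to 4, or 0.21 ± 0.15 (SD, n = 4), which is 15.4% higher in DEHP mice. In limma its p was 0.03283 before and 0.9016 after adjustment. The probe lies at chr1:58846867-58846926 (mm7, plus strand).

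Ndufb6, also of the membrane arm, had a small and even ratio of 0.13, 0.11, 0.031 and 0.096 in pairings 1 to 4, or 0.093 ± 0.044 (SD, n = 4). Ndufa7, of the matrix arm, had the highest mean of complex I, 0.27 ± 0.29, from 0.59, 0.16, 0.40 and -0.066. The second tested probe of Ndufa7 gave 0.52, 0.0083, 0.30 and -0.0097, so both probes had their highest ratios in pairings 1 and 3. Adjusted p in limma was 0.9016 for both genes. The other accessory subunits had means between -0.10 (Ndufb7) and 0.20 (Ndufb10).

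Ndufa12, an accessory subunit of the matrix arm, shows how far probes of one gene can part. It was chosen after its values were seen. Its 3 probes are given because they come from the same transcript, match different stretches of it and disagree in sign, with the bases shared by the overlapping probes b and c in capitals and probe a outside them:
Ndufa12 probe a, chr10:93780198-93780257, plus strand: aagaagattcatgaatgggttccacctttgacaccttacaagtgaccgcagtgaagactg
Ndufa12 probe b, chr10:93758942-93759001, plus strand: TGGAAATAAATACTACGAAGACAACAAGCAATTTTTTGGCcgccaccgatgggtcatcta
Ndufa12 probe c, chr10:93758922-93758981, plus strand: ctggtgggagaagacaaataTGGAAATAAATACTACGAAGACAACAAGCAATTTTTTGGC
Positions are those of the array design in mm7. Probe a, the brightest and the one used here, gave 0.22, -0.11, -0.048 and 0.21 in pairings 1 to 4. Probe b gave -0.74, -0.12, -0.18 and 0.25, and probe c gave -0.52, -0.053, -0.11 and 0.30. The overlapping probes b and c thus ran together, and both lay far from probe a in pairing 1. By contrast, the 3 probes of Ndufs6, an accessory subunit with a zinc site, gave means of 0.11, 0.11 and 0.12. Of the 17 members with more than 1 tested probe, all probes had one sign in 13 and both signs in 4.

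Complex II is encoded by the nucleus alone and also belongs to the citrate cycle. Its 4 subunits had no common direction. Sdha, the flavoprotein, had -0.14, 0.016, -0.095 and 0.0067 in pairings 1 to 4, a mean of -0.054 ± 0.078 (SD, n = 4). Sdhb, the iron-sulphur subunit, had -0.11, -0.12, -0.026 and 0.0053, a mean of -0.062 ± 0.061. The membrane anchors Sdhc and Sdhd had means of 0.089 ± 0.24 and 0.022 ± 0.22. In pairing 3 all 4 subunits were below 0, and in pairing 4 all 4 were above 0. The median of the complex was 0.0039 without pairing 1 and 0.018 without pairing 3. Adjusted p in limma was 0.9079 or more for each subunit. The means of Sdha and Sdhb depended on the dye, with -0.13 each where Cy5 marked the DEHP mouse, and 0.026 and 0.0080 where Cy3 did.

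In complex III, the Rieske iron-sulphur protein Uqcrfs1, which hands electrons to cytochrome c1, had the smallest p. Its log2 level was 13.67, 13.79, 13.75 and 13.65 in DEHP mice 1 to 4, against 13.44, 13.55, 13.70 and 13.54 in vehicle mice 1 to 4. Each DEHP mouse was above its paired vehicle mouse, while vehicle mouse 3 lay within the range of the DEHP mice. The ratio was 0.12, 0.093, 0.22 and 0.21 in pairings 1 to 4, or 0.16 ± 0.062 (SD, n = 4), and it was 0.16 in either dye orientation. The limma p was 0.01774 before and 0.9016 after adjustment. The probe lies at chr13:29906041-29906100 (mm7, minus strand).

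Uqcrh, the hinge protein that helps cytochrome c1 meet cytochrome c, had log2 levels of 14.02, 14.02, 13.91 and 13.91 in DEHP mice, against 13.84, 13.63, 13.91 and 13.81 in vehicle mice. The groups did not overlap, but only just, with 13.911 in DEHP mouse 4 and 13.91 in vehicle mouse 3. The ratio was 0.39, 0.11, 0.10 and 0.068 in pairings 1 to 4, a mean of 0.17 ± 0.15 (SD, n = 4), and a second probe gave 0.16. The values were less even in Uqcrb, a small subunit near the ubiquinone site, which had 0.40, 0.10, 0.26 and -0.0001, a mean of 0.19 ± 0.18. Adjusted p in limma was 0.9016 for both.

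The core proteins of complex III, which face the matrix, had wide spreads. Uqcrc1 had -0.11, -0.36, -0.11 and 0.27, a mean of -0.078 ± 0.26. With median centring it had 0.10, where the median of the 4265 brightest genes was 0.14. Uqcrc2 had 0.44, -0.17, 0.0054 and -0.073, a mean of 0.050 ± 0.27 that was -0.080 without pairing 1. Cyc1, the cytochrome c1 that the prefix misses, had -0.047 ± 0.19. Of the electron carriers next in the chain, the somatic cytochrome c Cycs had 0.12 ± 0.20 and the testis form Cyct had -0.11 ± 0.18 (SD, n = 4 each). Cyct was above 0 with median centring (0.074) and with DEHP in Cy5 alone (0.12), and Cycs was below 0 with DEHP in Cy5 alone (-0.053).

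Complex IV held the lowest mean of all members. Cox4i1, the common isoform of subunit 4, which binds ATP and takes part in regulating the complex, had log2 levels of 15.17, 15.04, 15.09 and 15.22 in DEHP mice 1 to 4, against 15.10, 15.54, 15.34 and 15.36 in vehicle mice 1 to 4. Only vehicle mouse 1 lay within the range of the DEHP mice. The ratio was -0.37, -0.30, -0.27 and 0.12 in pairings 1 to 4, a mean of -0.20 ± 0.22 (SD, n = 4). Before adjustment the limma p was 0.08116, and after it 0.9016. The mean depended on the dye: it was -0.45 on arrays where Cy5 marked the DEHP mouse, and 0.039 where Cy3 did. The probe lies at chr8:119308998-119309057 (mm7, plus strand). The hypoxia-linked isoform Cox4i2 was well above background in 0 of 8 DEHP and 2 of 8 vehicle channels and was not tested.

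Several subunits of complex IV come as isoforms, and their ratios are set side by side without comparing levels between probes. Of subunit 6b, which links the monomers of the enzyme, the common Cox6b1 had 0.11, 0.019, 0.077 and 0.14 in pairings 1 to 4, a mean of 0.085 ± 0.051, and the testis form Cox6b2 had 0.037 ± 0.074 (SD, n = 4 each). Of subunit 8, the common Cox8a had 0.37, 0.18, 0.057 and 0.0065, a mean of 0.15 ± 0.16, and the testis form Cox8c had 0.33, -0.14, 0.28 and 0.20, a mean of 0.17 ± 0.21. The muscle form Cox8b was above background in no channel (0 of 8 DEHP and 0 of 8 vehicle). Neither isoform set held a gene with an adjusted p under 0.9016 in limma. The testis forms Cox6b2 and Cox8c were well above background in all 16 channels.

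The probes for the isoforms of subunit 8 are printed because they share few bases. In the best ungapped alignment of the Cox8a and Cox8c probes, 21 of 60 bases matched, and the same held for 21 of 49 bases of the Cox6b1 and Cox6b2 probes. The subunit 8 probes are in lower case, with no base marked:
Cox8a, chr19:7035098-7035157, minus strand: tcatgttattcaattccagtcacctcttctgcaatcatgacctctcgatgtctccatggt
Cox8c, chr12:100395762-100395820, plus strand: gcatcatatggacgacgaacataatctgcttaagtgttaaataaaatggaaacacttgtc

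Of the other isoform sets, Cox6a1 had 0.025 ± 0.20 and the muscle form Cox6a2 -0.0046 ± 0.019. The Cox6a2 probe had low mean log2 levels, 7.992 in DEHP and 7.996 in vehicle mice. In subunit 7a, the muscle form Cox7a1 had 0.11 ± 0.26, the common form Cox7a2 0.11 ± 0.27 and the related Cox7a2l, which joins complexes III and IV, 0.021 ± 0.36. Both probes of Cox7a2 gave a like pattern, -0.0099, 0.18, 0.44 and -0.18 for the brighter one in pairings 1 to 4, so the gene had its highest ratio in pairing 3. Cox7b had 0.073 ± 0.27. The testis form Cox7b2, which the array lists under a clone name and which was matched by its transcript accession, had 0.31, 0.0029, 0.38 and -0.063, a mean of 0.16 ± 0.22. All of these values were within their own spread, and several changed sign when a pairing or a dye orientation was left out.

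In the ATP synthase, the highest mean of all members was that of Atp5o, the subunit at the top of the peripheral stalk that confers sensitivity to oligomycin. Its log2 level was 14.54, 14.63, 14.62 and 14.39 in DEHP mice 1 to 4, against 14.07, 14.08, 14.54 and 14.32 in vehicle mice 1 to 4. Each DEHP mouse was above its paired vehicle mouse, but the groups overlapped because vehicle mouse 3 was above DEHP mouse 4. The ratio was 0.46, 0.096, 0.30 and 0.32 in pairings 1 to 4, or 0.29 ± 0.15 (SD, n = 4), which is 22.6% higher in DEHP mice. It had the smallest p of all members, in limma 0.008685 before and 0.9016 after adjustment. The mean was 0.24 where Cy5 marked the DEHP mouse and 0.35 where Cy3 did. The probe lies at chr16:91975640-91975699 (mm7, minus strand).

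The peripheral stalk holds the head still against the turning rotor, and 3 of its other subunits were measured, 1 above 0 and 2 below. With median centring all 4 stalk subunits were above 0, but the median of the 4265 brightest genes was 0.14 there. Atp5h, subunit d of the stalk, had log2 levels of 14.82, 14.82, 14.77 and 14.75 in DEHP mice, against 14.72, 14.72, 14.61 and 14.58 in vehicle mice. The groups did not overlap. The ratio was 0.099, 0.22, 0.19 and 0.028 in pairings 1 to 4, a mean of 0.13 ± 0.087 (SD, n = 4), and a second probe gave 0.097. Adjustment in limma took its p of 0.04814 to 0.9016. Atp5f1, subunit b, had -0.094 ± 0.17 with its brightest probe, against 0.075 and 0.028 with its other 2. Atp5j, coupling factor 6, had -0.12 ± 0.24.

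**Figure D4:**
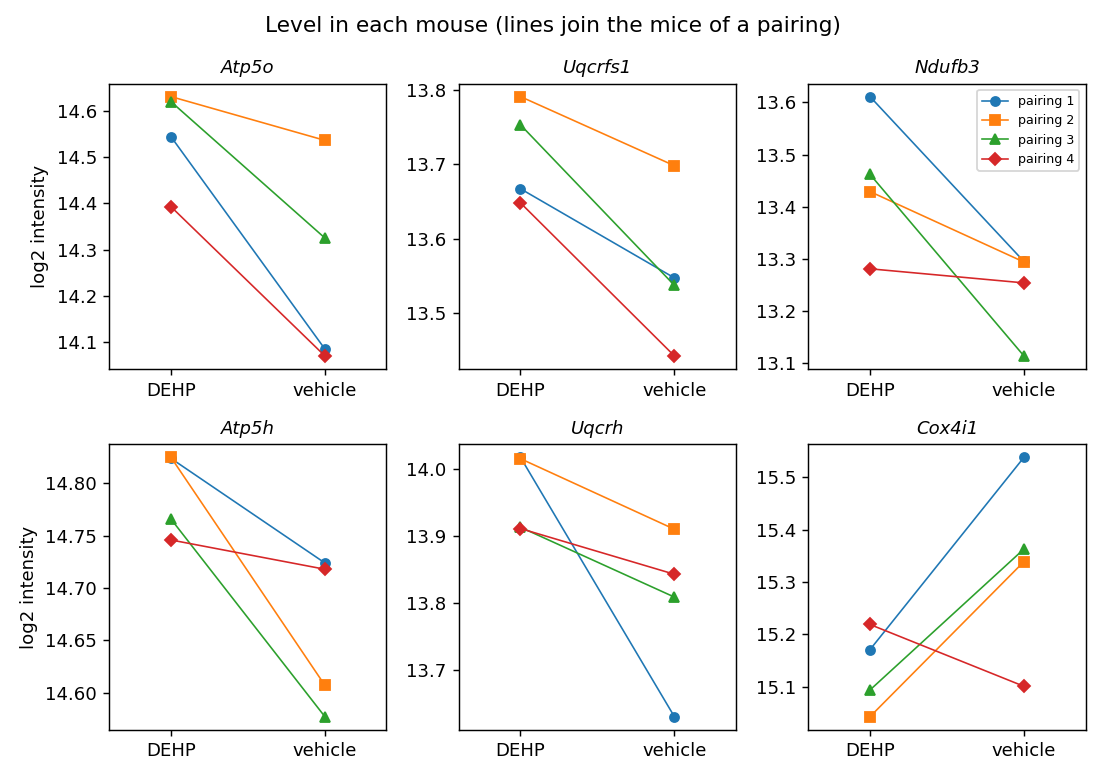
Log2 intensity (vertical axis; the scale differs between panels) of 6 members in each of 4 DEHP mice (left) and 4 vehicle mice (right), with lines joining the mice of a pairing. Atp5o, Uqcrfs1, Ndufb3, Atp5h and Uqcrh are higher in the DEHP mouse of each pairing, and Cox4i1 is lower in 3 of 4.

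The catalytic head of the ATP synthase was split. Its alpha and beta subunits, which bind nucleotide, had means below 0: Atp5a1 had -0.052, -0.14, -0.34 and 0.046 in pairings 1 to 4, a mean of -0.12 ± 0.16, and Atp5b had 0.034, -0.38, -0.19 and 0.013, a mean of -0.13 ± 0.19. Both means were above 0 with median centring (0.030 and 0.065) and with DEHP in Cy5 alone (0.0054 and 0.029). With median centring, however, the median of the 4265 brightest genes was 0.14, above both values. All 3 probes of Atp5b had a mean below 0. Atp5c1, the gamma subunit that turns inside the head, had 0.022, 0.18, 0.11 and 0.12, a mean of 0.11 ± 0.064 (SD, n = 4), with an adjusted p of 0.9016 in limma. Atp5d and Atp5e, the delta and epsilon subunits of the rotor, had 0.15 ± 0.30 and 0.093 ± 0.35.

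The c ring of the rotor is made from 3 genes, Atp5g1, Atp5g2 and Atp5g3, which differ in their import sequences and give the same mature protein. Atp5g1 had 0.37, 0.0052, 0.32 and -0.022 in pairings 1 to 4, a mean of 0.17 ± 0.21. Atp5g2 had 0.063 ± 0.062, and Atp5g3 had 0.052 ± 0.18 (SD, n = 4 each). Atp5g1 thus had its highest ratios in pairings 1 and 3. Atp5g3 depended on the dye, with 0.32 where Cy5 marked the DEHP mouse and -0.22 where Cy3 did. Although the genes encode one mature protein, their probes share few bases, at most 22 of 58 in the best ungapped alignment:
Atp5g1, chr11:96182649-96182708, minus strand: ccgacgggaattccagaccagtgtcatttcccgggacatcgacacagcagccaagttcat
Atp5g2, chr15:102649170-102649229, minus strand: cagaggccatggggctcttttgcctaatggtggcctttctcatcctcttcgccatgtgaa
Atp5g3, chr2:73752178-73752237, minus strand: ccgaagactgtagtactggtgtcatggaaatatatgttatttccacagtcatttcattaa
Of the small membrane subunits, which shape the dimer, Atp5k had 0.17, 0.041, 0.048 and 0.049, a mean of 0.078 ± 0.064. Atp5j2 had 0.20 ± 0.36 and Atp5l -0.091 ± 0.20.

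The dye orientations gave opposite signs for many single genes. The mean had the same sign in both orientations in 47 of 80 members, 38 above 0 and 9 below, against 57% of all genes tested with the same sign. The median over members was 0.071 for the 4 arrays with DEHP in Cy5 and 0.044 for the 4 others. All arrays of one orientation lay on the same slide, so the dye and the slide cannot be told apart. Across the 80 members, the 2 arrays of a pairing had a Pearson r of 0.65, 0.38, 0.51 and 0.39 in pairings 1 to 4, which describes genes that share the same 2 RNA samples. Across all 17061 genes tested it was higher in each pairing, at 0.71, 0.55, 0.68 and 0.71.

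**Figure D5:**
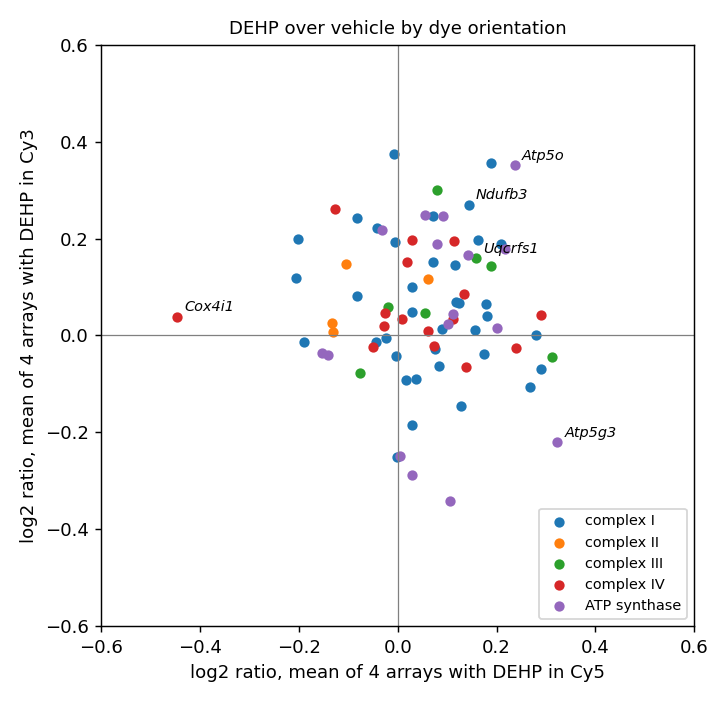
Mean log2 ratio of DEHP over vehicle of each of the 80 members on the 4 arrays with DEHP in Cy5 (horizontal axis) and on the 4 with DEHP in Cy3 (vertical axis), coloured by complex. Atp5o, Ndufb3 and Uqcrfs1 are above 0 in both, while Cox4i1 and Atp5g3 have opposite signs.

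The genes that the prefix takes in without being strict subunits were spread about 0. Ndufaf1 had -0.026 ± 0.22, Cox4nb -0.037 ± 0.10 and Atp5s 0.15 ± 0.29. Some true subunits stand under clone or older names and were matched by their transcript accession after the values were seen. Ndufv3, a small subunit of complex I of the matrix arm, had 3 tested probes with means of 0.33, 0.19 and -0.0045. Uqcr10, of complex III, had 0.090 ± 0.27, and Atp5mpl, a small membrane subunit of the ATP synthase, had 0.11 ± 0.29. Usmg5 (now Atp5md), also a small ATP synthase subunit, had -0.25, 0.25, 0.38 and -0.38, a mean of 0.0001. For the subunits encoded by mitochondrial DNA, no gene name among the 26 searched was found, so they were not analysed here.

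Genes that work with the chain did not move as one. Of the assembly factors outside the prefix, 7 of 16 were above 0 with a median of -0.0069. Surf1, which helps to build complex IV, had the smallest p among them and gave 0.19, 0.017, 0.32 and 0.20 in pairings 1 to 4, a mean of 0.18 ± 0.12. Of the citrate cycle enzymes, 4 of 12 were above 0 with a median of -0.020, and Sucla2, a subunit of succinyl-CoA ligase, had -0.11, -0.092, -0.29 and -0.26, a mean of -0.19 ± 0.10. Of the ADP/ATP carriers and porins, which pass ATP, ADP and phosphate across the mitochondrial membranes, 5 of 7 were above 0 with a median of 0.087. Slc25a4, the muscle-type ADP/ATP carrier, had 0.34, 0.14, 0.039 and 0.65, a mean of 0.29 ± 0.27. Of the regulators of mitochondrial biogenesis, 7 of 13 were above 0 with a median of 0.0055, and the coactivator Ppargc1a had 0.078 ± 0.098. Atpif1, the inhibitor of the ATP synthase, had 0.054 ± 0.19. In these lists 0 genes were called (adjusted p of 0.9016 or more in limma). An unadjusted limma p under 0.05 was found for 1 of 16 assembly factors (Surf1, above 0) and 1 of 7 carriers and porins (Slc25a4, above 0). It was also found for 1 of 12 citrate cycle enzymes (Sucla2, below 0) and 0 of 13 regulators, and for neither Atpif1 nor Usmg5. The share of all genes tested was 4.79%, and each of the 3 genes had the smallest p of its list.

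Promoters of many of these genes are known to carry sites for NRF1 and for GABPA, an ETS factor, and some carry YY1 sites near the start. RefSeq promoter windows of 300 bases (250 before to 50 after the start, GRCm38.p6) matched 67 members. The letters CGCATGCG of the NRF1 core, the same on both strands, stood in 9 of 67 members (13.4%), against 2.07% of 27025 genes. The ETS letters CCGGAAG on either strand stood in 17 of 67 (25.4%), against 9.93%, and the YY1 letters AAGATGGCG on either strand in 7 of 67 (10.4%), against 1.64%. TATAAA stood on either strand in 6 of 67 (8.96%), against 15.7%. No motif searched contains another. The median log2 ratio was 0.023 in the 9 tested members with the NRF1 letters and 0.089 in the 57 without. For the ETS letters it was 0.022 in the 17 with them and 0.089 in the 49 without, for the YY1 letters -0.0082 in 7 and 0.084 in 59, and for TATAAA -0.038 in 5 and 0.081 in 61. The median was thus lower in the members that hold the letters for all 4 motifs searched, TATAAA included, and the difference was not tested.

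The promoters of Atp5k, which holds both the NRF1 and the ETS letters, and of Atp5h, which holds the ETS letters, are shown as examples. Both genes are among the 10 of 80 members above 0 in all 4 pairings. Of the same 10, Ndufb6, Uqcrh, Cox6b1 (a dim probe) and Cox8a also held the ETS letters, while Ndufb3, Uqcrfs1 and Atp5c1 held none of the 4 motifs. A link between motif and ratio was not tested. The motif letters are in capitals, and CTTCCGG is the reverse complement of the ETS letters:
Atp5k, chr5:108434350-108434649, minus strand: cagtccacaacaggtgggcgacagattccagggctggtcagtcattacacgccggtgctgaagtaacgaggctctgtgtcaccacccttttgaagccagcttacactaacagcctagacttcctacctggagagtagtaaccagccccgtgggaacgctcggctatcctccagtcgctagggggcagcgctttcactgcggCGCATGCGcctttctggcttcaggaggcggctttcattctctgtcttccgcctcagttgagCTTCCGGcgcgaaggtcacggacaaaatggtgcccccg
Atp5h, chr11:115419870-115420169, minus strand: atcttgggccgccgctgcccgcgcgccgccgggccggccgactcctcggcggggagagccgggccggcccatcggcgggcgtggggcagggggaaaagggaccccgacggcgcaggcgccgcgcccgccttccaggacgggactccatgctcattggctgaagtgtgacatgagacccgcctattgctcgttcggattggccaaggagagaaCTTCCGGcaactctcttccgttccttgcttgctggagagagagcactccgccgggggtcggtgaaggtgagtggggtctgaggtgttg
Atp5o, with the highest mean, held none of the 4 motifs in its window.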

How the data were processed

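RNA of 8 mice was measured on 8 Agilent arrays with 2 colours each, grouped by the arrays' labels. Spot intensities (mean foreground, median background) were deposited without subtraction, read by Feature Extraction 9.5.1.1 per the file headers, beside that software's log10 ratio of Cy5 over Cy3. A matrix of log2 ratios by the authors was deposited too; limma is named in the submitters' processing notes without a version, and its normalization and filter are not given in the sources used here. Its direction, DEHP over vehicle, and its link to spots were found from the values (r of 0.943 to 0.972 with the scanner ratios; column medians of -0.0022 to 0.0116).

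Intensities were corrected by normexp (offset 50), normalised by loess within arrays with control spots at no weight, stripped of 246 to 331 outlier spots per array, reduced to 1 value per probe by averaging and signed so that above 0 means higher in DEHP mice. The 2 dye-swapped arrays of a pairing were averaged to 1 of 4 values. Probes well above background in at least 4 of 8 channels of either group were kept, 22971 of 41174. limma 3.58.1 (R 4.3.3) fitted an intercept, with Benjamini-Hochberg adjustment at 0.05. A gene is represented by its brightest kept probe. Levels per mouse are log2 intensities after loess and Aquantile scaling, averaged over the mouse's 2 channels.

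Mouse pairings are those of the labels, and 2 arrays of a pairing had a consensus correlation of 0.8195. The spread between mice comes from 1 cap each, so differences between mice cannot be told apart from those of capture and amplification. The fit was tested on simulated pairing values of 22971 probes, 200 of them changed: 0% were recovered at 1.25-fold, 49% at 1.5-fold and 85.5% at 2-fold. Members and lists were chosen with earlier results of these data known. Named genes were up to 3 per complex with the smallest p and one sign in all pairings, filled by p, plus complex II, core subunits and isoform sets; Ndufa12, Ndufs6, subunits under clone names and the subunit classes were added after values were seen. The values of 1 member are not reported here singly. Sequences are from the array files (mm7 positions) and RefSeq promoters (GRCm38.p6). Python 3.11.15 with pandas 2.3.3 and matplotlib 3.10.9 drew the figures.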

Additional observations from a re-analysis of the deposited data

Results flagged for a closer look

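With 4 pairings, a single pairing can stand apart from the other 3, and 4 of 40 genes examined had such a pairing; chance alone marks about 1 in 20. In Uqcrh the ratio of pairing 1 was 0.3861, against 0.068 to 0.11 in the others. In Cox6a1 pairing 1 had 0.3163, and the others were below 0. In Ndufs8 pairing 1 had -0.1093, against 0.012 to 0.024. In Cox6a2, whose ratios were all near 0, pairing 4 had 0.0235. Pairing 1 was also the one with the lowest elongating spermatid markers (median log2 ratio -0.46), and the part of this in the 3 values was not tested.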

How the results depend on the processing

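No member and no probe was called in limma under any of the alternatives run: other background correction, Agilent's own log ratios, median centring, looser and stricter filters, each dye orientation alone, mice as unpaired samples, each pairing left out, all probes of a gene, strict subunits only, and the authors' deposited ratios (49 members). In the replicate block fit over 8 arrays with a dye term, 0 members were called, 7 had an unadjusted p under 0.05 and the medians were unchanged (0.071 over all members). Members with an unadjusted limma p under 0.05 numbered 4 of 80 in the fit reported, against 4.79% of all genes. They numbered 16 with median centring, 14 with DEHP in Cy5 alone, 15 with DEHP in Cy3 alone and 2 to 15 with a pairing left out. Shares of all genes in these other settings and in the replicate block fit are not given here. The counts there are therefore no result about the members. With median centring the medians were 0.20 in complex I, 0.32 in complex III, 0.17 in complex IV, 0.22 in the ATP synthase and 0.20 over all members; there the median of the 4265 brightest genes, which include 58 of the 80 members, was 0.14, against -0.0016 with loess. With DEHP in Cy3 alone the ATP synthase median was 0.034. With a pairing left out, the median over members was 0.029 to 0.091.

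Single genes changed sign as follows. With median centring, Ndufs1 had 0.013, Ndufs3 0.14, Ndufs7 0.11, Ndufv1 0.14, Uqcrc1 0.10, Atp5a1 0.030, Atp5b 0.065 and Cyct 0.074. With DEHP in Cy5 alone, Sdhd had -0.10, Ndufs7 0.016, Atp5a1 0.0054, Atp5b 0.029, Cycs -0.053 and Cyct 0.12. With DEHP in Cy3 alone, Sdhb had 0.0080, Sdha 0.026, Cox4i1 0.039, Ndufv1 0.20, Cox6a1 -0.023, Cox6a2 0.019, Cox6b2 -0.065, Cox7a2 -0.026 and Atp5g3 -0.22. Without background correction Cox7a2l had -0.0065, and with Agilent's log ratios Ndufs8 had 0.031. With a pairing left out, Ndufs8 ranged from -0.027 to 0.018, Ndufv1 from -0.046 to 0.052, Uqcrc2 from -0.080 to 0.12, Cox6a1 from -0.072 to 0.068, Cox7a2l from -0.11 to 0.17, Cox7b from -0.0055 to 0.20, Atp5g3 from -0.031 to 0.11, Sdhd from -0.069 to 0.089, Ndufs3 from -0.12 to 0.046, Ndufs7 from -0.14 to 0.020, Uqcrc1 from -0.19 to 0.016 and Cox7a2 from -0.0054 to 0.20. The cause was not tested.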
